A study of Mus musculus with 7 samples.

Results

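The Fc gamma receptors are the cell surface receptors for the constant part of IgG antibodies. The genes described here are Fcgr1, Fcgr3, Fcgr4, Fcgr2b, Fcer1g and Fcrls, found by their symbols in the deposited count table, where they are 6 of 20343 complete rows. Messenger RNA was sequenced from the apical myocardium of 7 hearts, each a separate library. The study's title concerns inflammation and ageing of the myocardium driven by terminally differentiated CD4+ T cells, and the comparison asks what transferred T cells do to the mouse heart transcriptome.

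All hearts came from NSG-DR1 mice, given in the labels as strain NSG-DRB1*0101. NSG mice are an immunodeficient strain on the NOD background that lacks its own T, B and NK cells, and this line also carries a human HLA-DR1 molecule. Of the mice, 4 were controls. The other 3, called transferred, had been given human CD4+ T cells, and their hearts were collected 6 weeks later. The treatment label of the controls reads control and names no other cells. Whether they had an injection without cells is not in the labels used here. Age, sex, cell dose and donor are not in the labels used here.

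In mice, Fcgr1 (high affinity), Fcgr3 and Fcgr4 are activating receptors. They have no activating motif of their own and pass their signal through Fcer1g, the common gamma chain, whose ITAM (an activating tyrosine motif) recruits the kinase Syk after Src family kinases have acted. Fcgr2b is the inhibitory receptor of the family. Its ITIM (an inhibitory tyrosine motif) recruits the phosphatase SHIP1, the product of Inpp5d, and the balance of activating and inhibitory receptors sets how strongly a myeloid cell answers an immune complex. Fcrls is an Fc receptor-like gene with scavenger receptor homology that is used as a marker of some resident macrophages. Macrophages, monocytes and neutrophils carry most of these receptors. Fcgr2b is also found on B cells and on some endothelium.

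The promoters of the 3 activating receptors and of the inhibitory one are shown because the 4 genes were higher in the same hearts by different factors. Sequences are from RefSeq on build GRCm38.p6, where a promoter was listed for 6 of 6 genes, and each run is the 120 bases that end just before an annotated transcript start. The capitals mark GAGGAA or its reverse complement TTCCTC, a core that the myeloid factor PU.1 can bind. The Fcgr1 run is chr3:96293970-96294089 (minus strand), the Fcgr3 run is chr1:171059395-171059514 (minus strand), the Fcgr4 run is chr1:171018806-171018925 (plus strand) and the Fcgr2b run is chr1:170976072-170976191 (minus strand). For Fcgr3, 2 starts were listed, both inside the span of the gene, and the downstream one is shown.
Fcgr1: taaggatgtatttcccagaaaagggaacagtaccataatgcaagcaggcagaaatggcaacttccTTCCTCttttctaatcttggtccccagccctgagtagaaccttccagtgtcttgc
Fcgr3: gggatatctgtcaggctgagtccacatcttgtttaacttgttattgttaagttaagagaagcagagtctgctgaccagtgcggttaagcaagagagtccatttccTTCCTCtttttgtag
Fcgr4: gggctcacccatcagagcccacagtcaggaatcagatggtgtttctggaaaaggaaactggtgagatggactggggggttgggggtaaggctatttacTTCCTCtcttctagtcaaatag
Fcgr2b: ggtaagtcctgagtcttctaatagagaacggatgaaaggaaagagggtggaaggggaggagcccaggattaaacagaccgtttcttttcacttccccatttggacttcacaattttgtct

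The marked core lay 55 to 50 bases before the start in Fcgr1, 22 to 17 bases before it in Fcgr4 and 15 to 10 bases before the start shown for Fcgr3. Over the 250 bases before the start, on both strands, it was also present in Fcrls, 144 to 139 bases before the start, and these letters were not in the windows of Fcgr2b and Fcer1g. The same core was in 23.3% of all 32851 listed promoters over the same length. A core of the interferon response element, GAAANNGAA, was matched in Fcgr4 alone as GAAAAGGAA, 73 to 65 bases before the start, against 7.13% of all promoters. These matches are letters in a window of the reference build and not measured binding. The sequences of the mice used, which are on the NOD background, were not examined and may differ.

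All 6 genes were higher in transferred than in control hearts, with no overlap between the groups except for Fcrls, whose groups overlapped under other scalings, and the activating receptors Fcgr4 and Fcgr1 had the largest fold changes. None of the 6 passed the edgeR quasi-likelihood test at an adjusted p of 0.05, which 18 of 7667 tested genes did (0.235%). At an unadjusted p under 0.05 all 6 were higher, against 7.17% of all tested genes. On the TMM scale used here all 6 had groups that did not overlap, against 5.99% of tested genes in the higher direction, and with total count or RLE scaling 5 did, all but Fcrls. DESeq2, a second count test, called 5 of the 6 at an adjusted p of 0.05, all but Fcrls, against 2.55% of genes called higher. The limma-voom test called none of the 6, and all 6 had an unadjusted p under 0.05 in it, against 6.7% of genes higher. The median log2 fold change over the 6 genes was 0.97, and over all tested genes it was -0.002. All 6 passed the filter on low counts. Fcgr4, the lowest of them, passed it in 3 of 4 control hearts alone, so its testing did not rest on the transferred hearts.

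Fcgr4, the activating receptor of IgG2 subclasses that monocytes and neutrophils carry, was the least abundant. Control hearts 1 to 4 had 8, 15, 14 and 8 counts, or 0.389, 0.646, 0.537 and 0.505 CPM (scaled counts-per-million). Transferred hearts 1 to 3 had 65, 119 and 21 counts, or 3.29, 5.60 and 1.04 CPM. The lowest transferred heart was 1.61-fold above the highest control heart, and transferred heart 2 was 5.39-fold above transferred heart 3. The means were 0.519 ± 0.106 CPM (SD, n = 4) and 3.31 ± 2.28 CPM (SD, n = 3). The log2 fold change was 2.65 (SE 0.51, edgeR adjusted p = 0.0702). The SD within the transferred group was 68.9% of its mean, against 20.3% in controls.

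Fcgr1 encodes the high affinity receptor that binds monomeric IgG and is a classical target of interferon gamma. Its level was 6.95, 6.58, 5.41 and 7.82 CPM in control hearts 1 to 4, and 27.4, 22.95 and 9.29 CPM in transferred hearts 1 to 3. Transferred hearts 1 and 2 stood far above every control heart, while transferred heart 3 was 1.19-fold above the highest of them. The means were 6.69 ± 1.0 CPM (SD, n = 4) and 19.9 ± 9.44 CPM (SD, n = 3). The log2 fold change was 1.57 (SE 0.32, edgeR adjusted p = 0.0813).

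Fcgr3, the low affinity activating receptor and the most abundant activating one here, had 25.8, 28.8, 20.4 and 35.9 CPM in control hearts 1 to 4. It had 39.4, 67.6 and 40.02 CPM in transferred hearts 1 to 3. Only transferred heart 2 stood well apart, and transferred heart 1 was 1.10-fold above control heart 4, the highest control. The log2 fold change was 0.83 (SE 0.23, edgeR adjusted p = 0.190).

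Fcgr2b, the inhibitory receptor, had 15.6, 14.98, 13.4 and 17.9 CPM in control hearts 1 to 4. It had 24.1, 46.4 and 22.8 CPM in transferred hearts 1 to 3, so that all transferred hearts lay above all controls and heart 2 was 2.03-fold above heart 3. The means were 15.5 ± 1.86 CPM (SD, n = 4) and 31.1 ± 13.3 CPM (SD, n = 3). The log2 fold change was 1.01 (SE 0.24, edgeR adjusted p = 0.127). The inhibitory receptor had a larger fold change than the activating Fcgr3 and a smaller one than Fcgr1 and Fcgr4.

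Fcer1g, the signalling chain that the activating receptors share, had the most even values of the 6 genes among control hearts. Control hearts 1 to 4 had 14.9, 15.4, 16.7 and 16.8 CPM, and transferred hearts 1 to 3 had 34.8, 33.96 and 22.3 CPM. The control SD was 6.00% of the mean, and the lowest transferred heart was 1.32-fold above the highest control. Its log2 fold change was 0.93 (SE 0.15, edgeR adjusted p = 0.0515), which put Fcer1g at rank 22 of all tested genes by p. This was the smallest p of the 6 genes, although its fold change was below that of Fcgr4, Fcgr1 and Fcgr2b. With RLE scaling its adjusted p was 0.0495 and with total count scaling 0.0463, so the call turned on the scaling. When every gene with at least 1 count was kept, Fcer1g (adjusted p = 0.00423) and Fcgr4 (adjusted p = 0.0154) passed in edgeR, against 0.544% of genes called higher.

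Fcrls had 23.9, 25.2, 13.97 and 30.5 CPM in control hearts 1 to 4 and 30.5, 45.0 and 33.8 CPM in transferred hearts 1 to 3. The groups touched, since transferred heart 1 and control heart 4 differed by a factor of 1.002. With total count scaling the highest control heart, at 29.4 CPM, was above the lowest transferred heart, at 28.7 CPM. Its log2 fold change was 0.64 (SE 0.24, edgeR adjusted p = 0.315), the smallest of the 6.

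**Figure D1:**
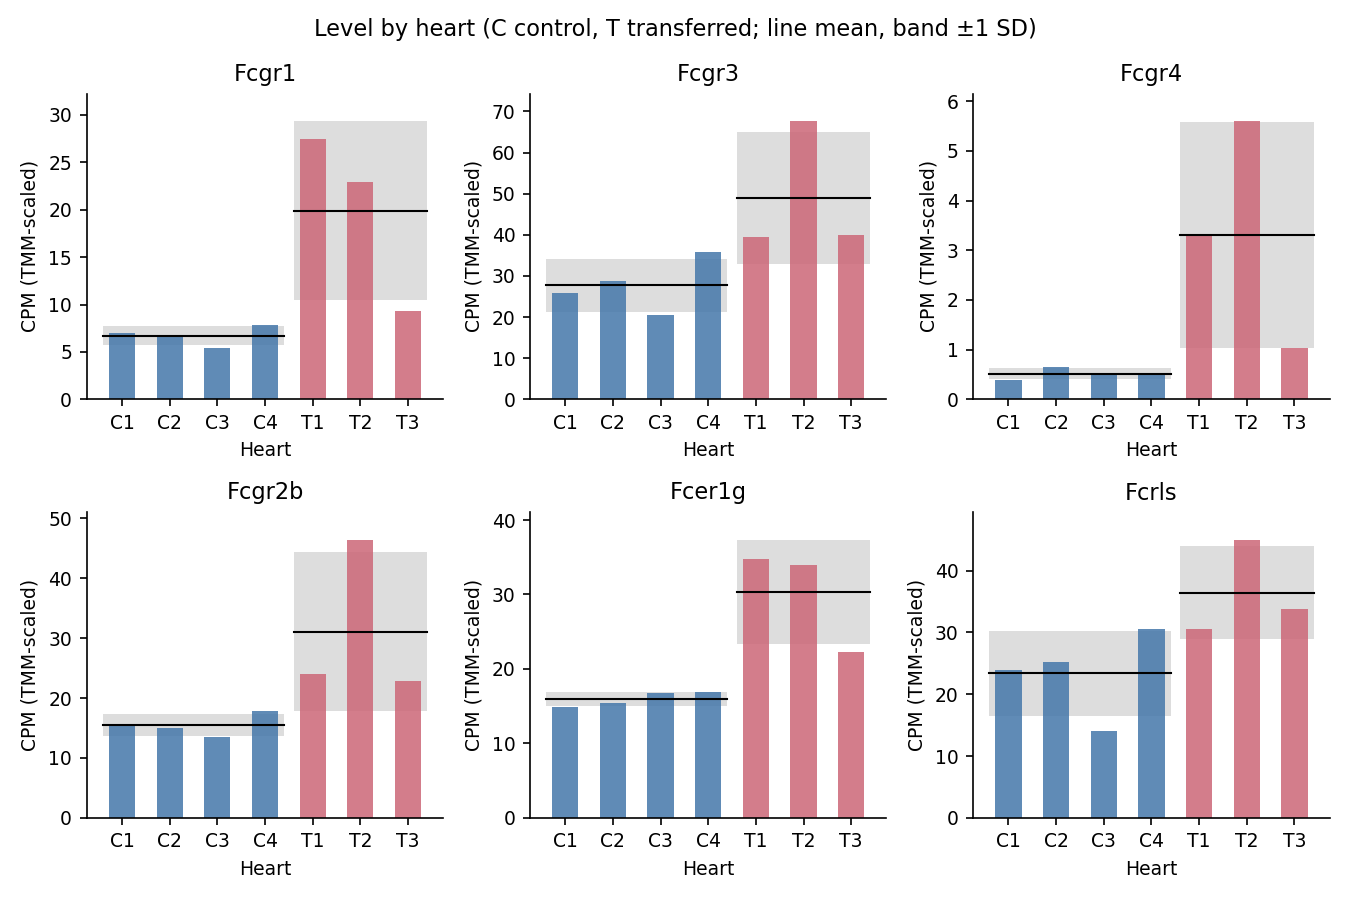
Level of each gene in every heart (x axis, C1 to C4 control, T1 to T3 transferred; y axis, TMM-scaled CPM from 0), with the group mean as a line and ±1 SD as a band. Transferred hearts 1 and 2 carry the high values of Fcgr1 and Fcer1g, and transferred heart 2 alone those of Fcgr3 and Fcgr2b; for Fcgr4 the transferred hearts read 3.29, 5.60 and 1.04 CPM.

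The transferred hearts differed in which receptors were high. Between transferred hearts 1 and 3, Fcgr1 differed 2.95-fold and Fcgr4 3.17-fold, while Fcgr2b differed 1.05-fold and Fcgr3 0.983-fold. Transferred heart 2 had 1.93 times the Fcgr2b and 1.72 times the Fcgr3 of transferred heart 1, but 0.838 times its Fcgr1 and 0.976 times its Fcer1g. Across the 7 hearts, Fcgr3 and Fcgr2b had a Pearson r of 0.96 on log2 CPM (0.5 CPM added), as did Fcgr4 and Fcer1g, and Fcgr1 and Fcer1g. Fcrls and Fcer1g had the lowest r of the 15 pairs, 0.64. These coefficients include the difference between the groups, share each library's scaling and are given as a description.

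Leaving out each heart in turn kept all 6 genes above 0. Without transferred heart 2 the log2 fold change was 0.60 for Fcgr2b, 0.52 for Fcgr3 and 2.04 for Fcgr4. Without transferred heart 3, 4 genes passed the adjusted threshold of edgeR, Fcgr1 (1.92), Fcgr4 (3.08), Fcer1g (1.11) and Fcgr2b (1.19 on the log2 scale), against 1.64% of tested genes higher in that fit. Animal identifiers in the labels start with letters for 1 heart of each group (control 1, transferred 1) and are purely numeric for the rest. Within the 5 hearts with a numeric identifier the log2 fold changes were 1.30 for Fcgr1, 0.94 for Fcgr3, 2.55 for Fcgr4, 1.18 for Fcgr2b, 0.79 for Fcer1g and 0.78 for Fcrls. None passed in edgeR there, and all 6 had an unadjusted p under 0.05, against 7.16% of tested genes higher in that fit. Between the remaining pair of hearts the log2 differences in CPM were 1.98, 0.61, 3.08, 0.63, 1.221 and 0.35 in the same order.

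**Figure D2:**
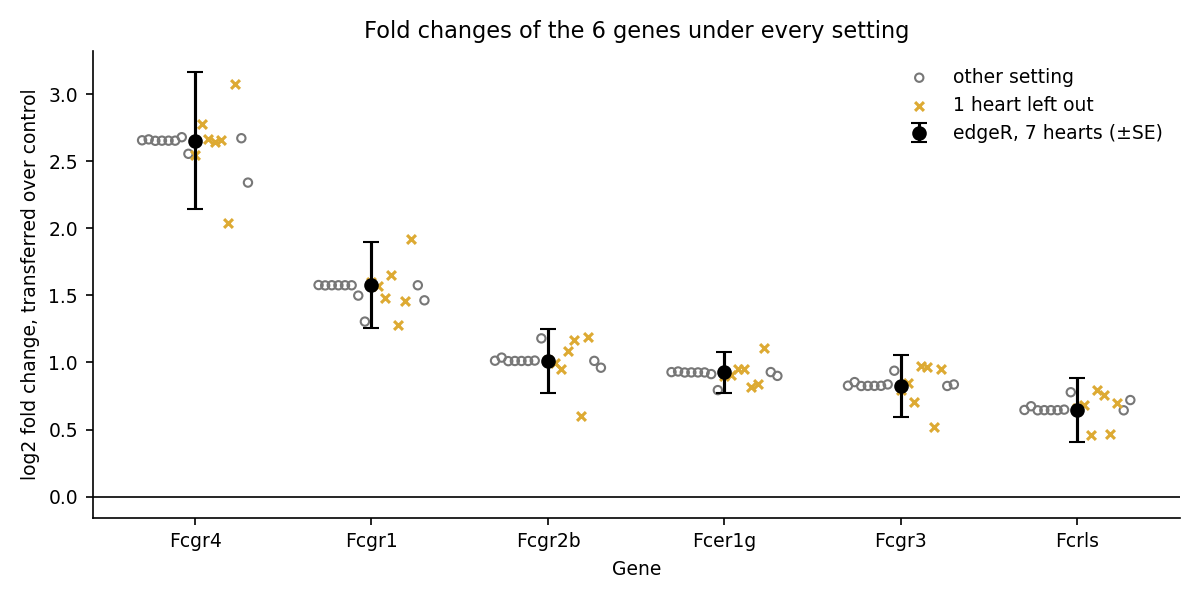
Log2 fold change (y axis, transferred over control) of each gene (x axis) by edgeR over 7 hearts with its standard error (black), with 1 heart left out (crosses) and under the other scalings, filters, tests and heart selections (open circles). All points lie above 0, and leaving out transferred heart 2 gives the low points of 0.60 for Fcgr2b and 2.04 for Fcgr4.

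Levels of different genes were compared as CPM per kilobase of combined exon length. In control hearts Fcer1g was highest at 24.3 ± 1.46 CPM per kilobase (SD, n = 4). Fcgr2b at 10.002 ± 1.20, Fcrls at 9.91 ± 2.92 and Fcgr3 at 9.55 ± 2.23 followed, and their ranges overlapped. Fcgr1 was lower at 2.59 ± 0.386 and Fcgr4 lowest at 0.415 ± 0.0845, each without overlap with its neighbour in that order. In transferred hearts Fcer1g was again highest at 46.1 ± 10.6 CPM per kilobase (SD, n = 3), above Fcgr2b at 20.1 ± 8.59, Fcgr3 at 16.9 ± 5.55 and Fcrls at 15.4 ± 3.21, whose ranges again overlapped. Fcgr1 was at 7.68 ± 3.65 and Fcgr4 at 2.65 ± 1.82, and these ranges overlapped, although Fcgr1 was above Fcgr4 in 3 of 3 hearts.

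The activating receptors were set against Fcgr2b within each heart, as the log2 ratio of CPM with a pseudocount of 0.5 CPM. With this pseudocount the groups overlapped for all 4 ratios. Each was tested by an exact two-sided permutation test over 35 splits with Benjamini-Hochberg adjustment over the 4 ratios. The two-sided p doubles the smaller tail and in this form cannot go below 0.0571, while an exact p on the absolute difference can reach 0.0286, or 0.114 after adjustment where 1 ratio alone reaches it. None of the 4 passed in either form (adjusted 0.343 or more on the absolute difference). For Fcgr4 to Fcgr2b, control hearts 1 to 4 were at -4.18, -3.76, -3.75 and -4.20 and transferred hearts 1 to 3 at -2.70, -2.94 and -3.92. Transferred hearts 1 and 2 were above every control heart and transferred heart 3 was among them, but with 0.1 CPM or no pseudocount heart 3 was above them too (-4.46 without one, against a highest control of -4.54). The mean difference was 0.78 (exact permutation p = 0.171, adjusted 0.457). It was 1.45 without a pseudocount (exact permutation p = 0.0571 with the tail doubled, adjusted 0.229, and 0.0286 on the absolute difference, adjusted 0.114), 1.26 with 0.1 CPM and 0.12 with 2 CPM, since Fcgr4 lay near the pseudocount in controls.

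For Fcgr1 to Fcgr2b, control hearts 1 to 4 were close together at -1.11, -1.13, -1.24 and -1.15. Transferred hearts 1 to 3 were at 0.18, -1.0 and -1.25, so only transferred heart 1 stood far from the controls. The mean difference of 0.46 (exact permutation p = 0.343, adjusted 0.457) was 0.03 without transferred heart 1. For Fcgr3 to Fcgr2b the mean was 0.80 ± 0.19 (SD, n = 4) in control and 0.68 ± 0.13 (SD, n = 3) in transferred hearts, a difference of -0.12 (exact permutation p = 0.343, adjusted 0.457). For Fcer1g to Fcgr2b the difference was -0.04 (exact permutation p = 0.971, adjusted 0.971), with transferred hearts from -0.45 to 0.52 and control hearts from -0.09 to 0.31. Between the hearts whose identifier starts with letters the differences were 1.48 for Fcgr4 (2.45 without a pseudocount), 1.29 for Fcgr1, -0.01 for Fcgr3 and 0.58 for Fcer1g. Within the hearts with a numeric identifier they were 0.47 (1.02 without a pseudocount), 0.04, -0.16 and -0.33.

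**Figure D3:**
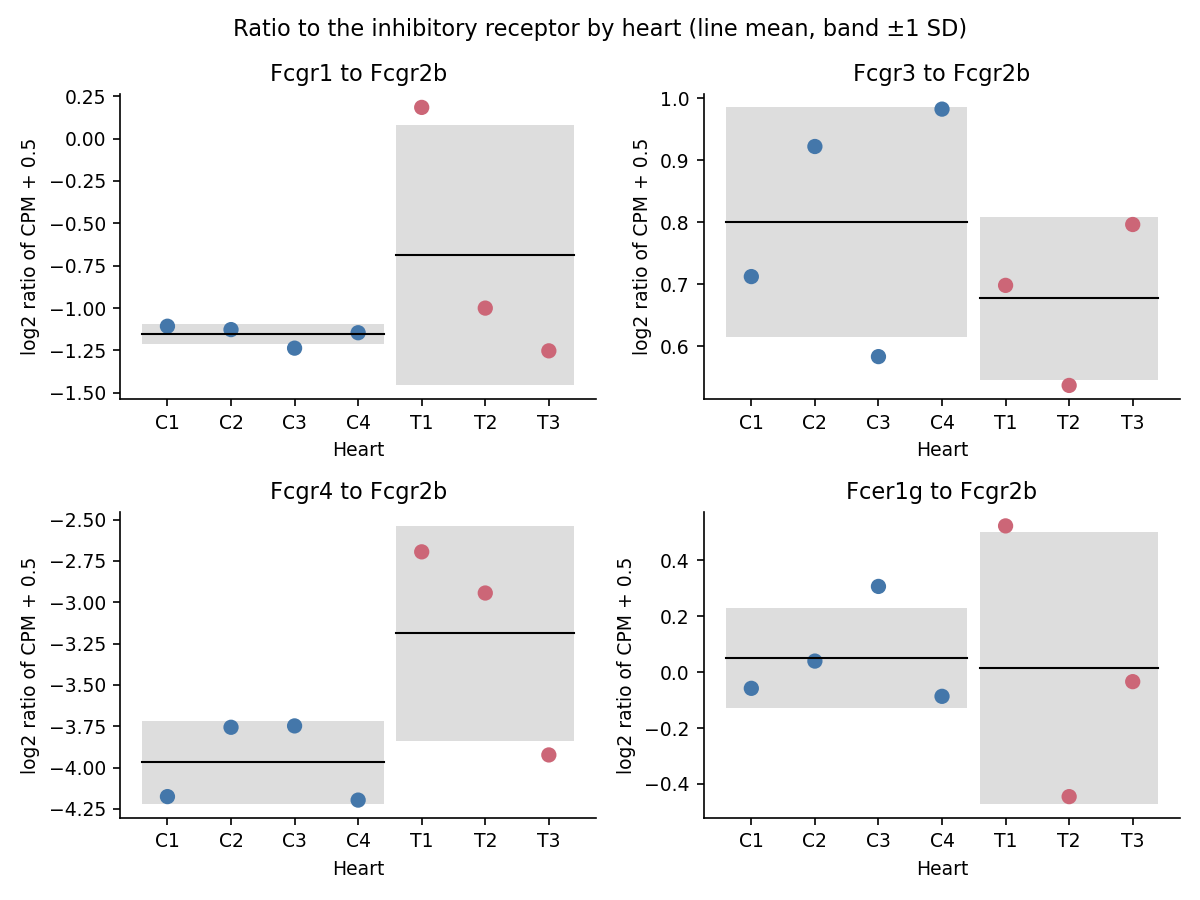
Log2 ratio (y axis) of CPM with 0.5 CPM added of Fcgr1, Fcgr3, Fcgr4 and Fcer1g to Fcgr2b in every heart (x axis, C control, T transferred), with group mean (line) and ±1 SD (band). Transferred heart 1 stands apart for Fcgr1 at 0.18, and for Fcgr4 transferred hearts 1 and 2 lie above the controls while heart 3, at -3.92, lies among them.

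As a share of the 4 IgG receptors per kilobase, Fcgr2b was 45.8%, 42.7%, 47.7% and 42.3% of the pool in control hearts 1 to 4 and 36.7%, 45.0% and 44.8% in transferred hearts 1 to 3. The sum of the 3 activating receptors was 1.25 ± 0.127 times Fcgr2b in control hearts (SD, n = 4) and 1.39 ± 0.286 times in transferred hearts (SD, n = 3), and the groups overlapped. Fcgr4, an activating receptor, made up 1.42% to 2.36% of the same pool of 4 receptors in controls. In transferred hearts 1 to 3 it made up 6.22%, 6.72% and 2.52%, without overlap. Fcgr1 made up 11.04% to 12.2% in controls and 25.01%, 13.3% and 10.9% in transferred hearts. The pool as a whole was 22.6 ± 3.76 CPM per kilobase in control hearts (SD, n = 4) and 47.3 ± 17.4 in transferred hearts (SD, n = 3). The whole pool was higher in each transferred heart, while the Fcgr2b share overlapped between the groups.

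Of 20 macrophage markers 13 were in the table and tested. All 13 had a log2 fold change above 0, against 49.7% of all tested genes. Of these, 2 passed the edgeR threshold, the mannose receptor Mrc1 and the complement gene C1qb. At an unadjusted p under 0.05, 12 were higher, against 7.17% of all tested genes. DESeq2 called 11, against 2.55% of genes called higher, and the median was 0.93. The summed level of the 13 markers ranged from 561 to 826 CPM in control and from 956 to 1431 CPM in transferred hearts. The monocyte marker Plac8 had 0.584 to 1.16 CPM in control hearts and 10.3, 8.47 and 1.98 CPM in transferred hearts 1 to 3. Chil3, another, had 0.154 to 0.778 CPM in control hearts and 1.01, 6.35 and 2.57 CPM in transferred hearts 1 to 3. The 5 neutrophil markers summed to 8.87 to 12.01 CPM in control hearts and to 12.2, 259 and 36.7 CPM in transferred hearts 1 to 3. Transferred heart 1, the highest for Fcgr1 and Fcer1g, was within the control range for the neutrophil markers S100a9, Csf3r and Mmp9. It was above the highest control heart for S100a8 (2.13 against 2.04 CPM) and Cxcr2 (1.11 against 0.757 CPM). None of these 7 passed the edgeR threshold. Cxcr2 passed the filter on low counts only with transferred hearts counted, and the other 6 had an unadjusted p under 0.05, of which DESeq2 called Plac8, Chil3 and 3 of the 4 other neutrophil markers. Transferred heart 2, with the most neutrophil marker RNA, also had the most Fcgr4, Fcgr3, Fcgr2b and Fcrls. The part of these cell types in the receptor levels was not tested. In bulk tissue, more cells of a type and more RNA per cell cannot be told apart.

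B cell and NK cell markers were at or near 0 in every heart. The 6 B cell markers in the table summed to 3 to 13.5 counts in a heart, and Pax5 had no counts. The 6 NK cell markers summed to at most 3.5 counts in a heart, and Ncr1 and Klrb1c had none. Endothelial markers summed to 2955 to 3294 CPM in control and 2568 to 2842 CPM in transferred hearts, with 1 of 6 past the threshold, Aqp1, which fell. Without Aqp1 the other 5 summed to 2299 ± 90.9 CPM (SD, n = 4) and 2291 ± 173 CPM (SD, n = 3), and the median log2 fold change of the 6 was 0.003. The 5 cardiomyocyte markers in the table, of the cell type that makes up most myocardial mass, summed to 85909 to 110205 CPM over all hearts.

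Platelets and mast cells also carry Fcer1g, and platelet marker RNA was highest in transferred hearts 1 and 2. The 4 platelet markers in the table summed to 22.2 to 39.3 CPM in control hearts and to 113, 149 and 28.0 CPM in transferred hearts 1 to 3, so that transferred heart 3 lay among the controls. None of them passed in edgeR. Gp6 passed the filter on low counts only with transferred hearts counted. Of the other 3, 2 were higher at an unadjusted p under 0.05, against 7.17% of all tested genes. DESeq2 called 1, Pf4, against 2.55% of genes called higher. Transferred hearts 1 and 2, with the most platelet marker RNA, were also those with the most Fcgr1, Fcgr4 and Fcer1g. The 5 mast cell markers summed to 51.9 to 62.1 CPM in control and 40.5 to 62.1 CPM in transferred hearts, most of it Gata2, and the groups overlapped. Of the 4 tested, none passed in edgeR. At an unadjusted p under 0.05 Hdc was higher (log2 fold change 0.78) and Kit (-0.75) and Cpa3 (-1.36) were lower. Such a p was found for 12.4% of all tested genes in either direction. DESeq2 called 1 of the 4 mast cell markers, Kit. The 5 dendritic cell markers summed to 38.04 to 44.95 CPM in control and 40.8 to 50.6 CPM in transferred hearts, nearly all of it Zbtb46, again overlapping. Itgax, at 0.0486 to 0.430 CPM in control and 0.557 to 1.19 CPM in transferred hearts, passed the filter on low counts only through the transferred hearts, so its test is not given. The part of platelets in the receptor levels was not tested.

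Set against the summed macrophage markers in the same heart, the groups overlapped for 5 of the 6 genes, all but Fcgr4. The mean log2 difference between transferred and control hearts was 0.04 for Fcer1g, 0.08 for Fcgr2b, -0.06 for Fcgr3 and -0.18 for Fcrls. It was 0.58 for Fcgr1 and 1.53 for Fcgr4. With 1 heart left out it ranged from 0.33 to 0.89 for Fcgr1, from 1.11 to 2.04 for Fcgr4 and from -0.33 to -0.01 for Fcrls, and it took both signs for Fcgr2b (-0.13 to 0.28), Fcgr3 (-0.19 to 0.13) and Fcer1g (-0.03 to 0.15). For Fcgr1, control hearts ranged from -6.72 to -6.59, and transferred hearts 1 to 3 were at -5.58, -5.96 and -6.69, so the first 2 were above all controls. For Fcgr4, control hearts ranged from -10.75 to -9.98 and transferred hearts were at -8.64, -8.00 and -9.85, with heart 3 just above the highest control. With 0.5 CPM added, which is about the control level of Fcgr4, its difference was 0.84 and heart 3 lay among the controls. For Fcer1g, control hearts ranged from -5.62 to -5.07 and transferred hearts from -5.42 to -5.24. No test was made of these values, because the markers moved with the receptor genes in bulk tissue, and they are a description only. Which cells the receptor RNA came from was not tested.

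**Figure D4:**
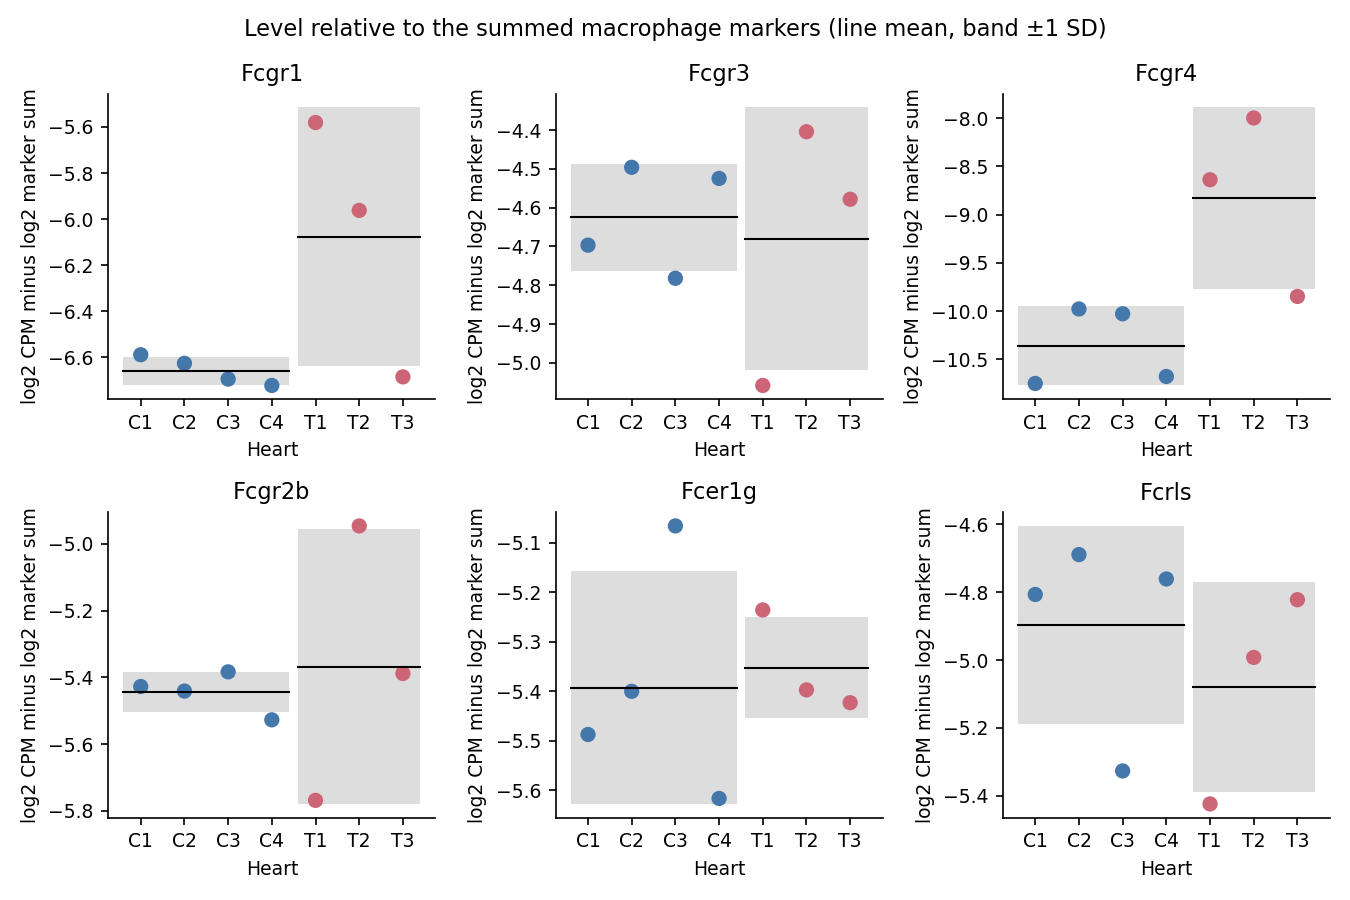
Log2 CPM of each gene minus log2 of the summed macrophage markers (y axis) in every heart (x axis, C control, T transferred), with group mean (line) and ±1 SD (band). The group means of Fcer1g, Fcgr2b, Fcgr3 and Fcrls differ by 0.04, 0.08, -0.06 and -0.18, while Fcgr1 and Fcgr4 are higher in transferred hearts 1 and 2, and Fcgr4 in heart 3 lies just above the highest control.

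Of the other Fc receptor genes, 12 of 12 listed were in the table but 2 passed the filter. Fcgrt, the neonatal receptor that recycles IgG and is widely expressed, was at 204 ± 15.7 CPM (SD, n = 4) in control and 191 ± 16.9 CPM (SD, n = 3) in transferred hearts (edgeR adjusted p = 0.736). Trim21, a cytosolic IgG receptor that is also interferon inducible, was at 13.7 ± 0.246 CPM (SD, n = 4) and at 28.5, 17.1 and 14.9 CPM in transferred hearts 1 to 3 (edgeR adjusted p = 0.292). Fcer1a, the IgE receptor subunit that also pairs with Fcer1g in mast cells, was under the filter with 0 to 2 counts in control hearts and 0, 9 and 0 counts in transferred hearts 1 to 3.

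In the activating pathway, 20 of 33 listed genes were in the table and 19 were tested. None passed the edgeR threshold. At an unadjusted p under 0.05, 7 were higher and 0 lower, against 7.17% of all tested genes higher. The median log2 fold change was 0.12. The NADPH oxidase subunit Ncf1 had 7.75 to 10.6 CPM in control hearts and 17.4, 19.9 and 13.1 CPM in transferred hearts 1 to 3 (log2 fold change 0.89, edgeR adjusted p = 0.0702). The Src family kinase Fgr had 0.614 to 0.947 CPM in control hearts and 1.47, 6.26 and 2.82 CPM in transferred hearts 1 to 3 (log2 fold change 2.09, edgeR adjusted p = 0.102). DESeq2 called 4 of the 19, against 2.55% of genes called higher, among them Ncf1 (adjusted p = 0.000462) and Fgr (adjusted p = 0.00267). The limma-voom test called no gene of any list. Lyn, the Src family kinase most linked to ITAM and ITIM phosphorylation, was at 67.4 CPM in control and 73.01 CPM in transferred hearts (edgeR adjusted p = 0.778); it is named outside the rule.

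In the inhibitory pathway, 5 of 10 listed genes were tested and none passed the edgeR threshold. At an unadjusted p under 0.05, 2 were higher and 0 lower, against 7.17% of all tested genes higher. DESeq2 called 1, Ptpn6, against 2.55% of genes called higher, and the median log2 fold change was 0.19. Ptpn6, the phosphatase SHP-1, was at log2 fold change 0.67 (edgeR adjusted p = 0.108) and Inpp5d, the phosphatase that acts after Fcgr2b, at 0.52 (edgeR adjusted p = 0.246). Ptpn11, the phosphatase SHP-2, was at 857 CPM in control and 738 CPM in transferred hearts (log2 fold change -0.22, edgeR adjusted p = 0.457).

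Of the signalling chains related to Fcer1g, 2 of 6 listed were tested. Neither passed in edgeR. Each had an unadjusted p under 0.05, against 12.4% of all tested genes in either direction. DESeq2 called 1, Tyrobp, against 2.55% of genes called higher. Tyrobp (DAP12), which serves other myeloid receptors, had 18.8 to 25.05 CPM in control hearts and 32.9, 52.2 and 30.8 CPM in transferred hearts 1 to 3, and log2 fold change 0.76 (edgeR adjusted p = 0.128). Its values rank the transferred hearts as those of Fcgr2b do, with heart 2 highest. Cd247, the zeta chain of T and NK cells, was at log2 fold change -1.06 (edgeR adjusted p = 0.278).

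Other receptors that signal through Fcer1g had 6 of 13 listed genes tested. Of these, 2 passed the edgeR threshold, both paired immunoglobulin-like receptors, Pira2 with a log2 fold change of 1.70 and Pira1 with 1.62, each with an adjusted p of 0.0384. Gp6, which passed the filter on low counts only with transferred hearts counted, is not counted here. Of the other 5, all were higher at an unadjusted p under 0.05, against 7.17% of all tested genes. DESeq2 called 4, against 2.55% of genes called higher, and the median was 1.62. Clec4d, a C-type lectin, had 0.689 to 0.921 CPM in control hearts and 2.03, 6.96 and 1.83 CPM in transferred hearts 1 to 3 (log2 fold change 2.18, edgeR adjusted p = 0.102). Of 13 listed inhibitory and related receptors, most of which carry an ITIM, 9 were tested. All 9 had a log2 fold change above 0, against 49.7% of all tested genes, with a median of 1.0. The list holds Siglec1 (1.92), a sialic acid receptor with no ITIM, and without it the median was 0.90. At an unadjusted p under 0.05, 8 of the 9 were higher, against 7.17% of all tested genes. DESeq2 called 4 of the 9, against 2.55% of genes called higher. Pirb passed (log2 fold change 1.54, edgeR adjusted p = 0.0384), while Clec4a2 (1.20, adjusted p = 0.0572) and the sialic acid receptor Siglece (1.25, adjusted p = 0.110) did not. Deposited values ended in a fraction in 7 of 7 hearts for Pira1 and Pirb and in 6 of 7 for Pira2, whose copies are near identical, so which paired receptor was higher is uncertain.

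**Figure D5:**
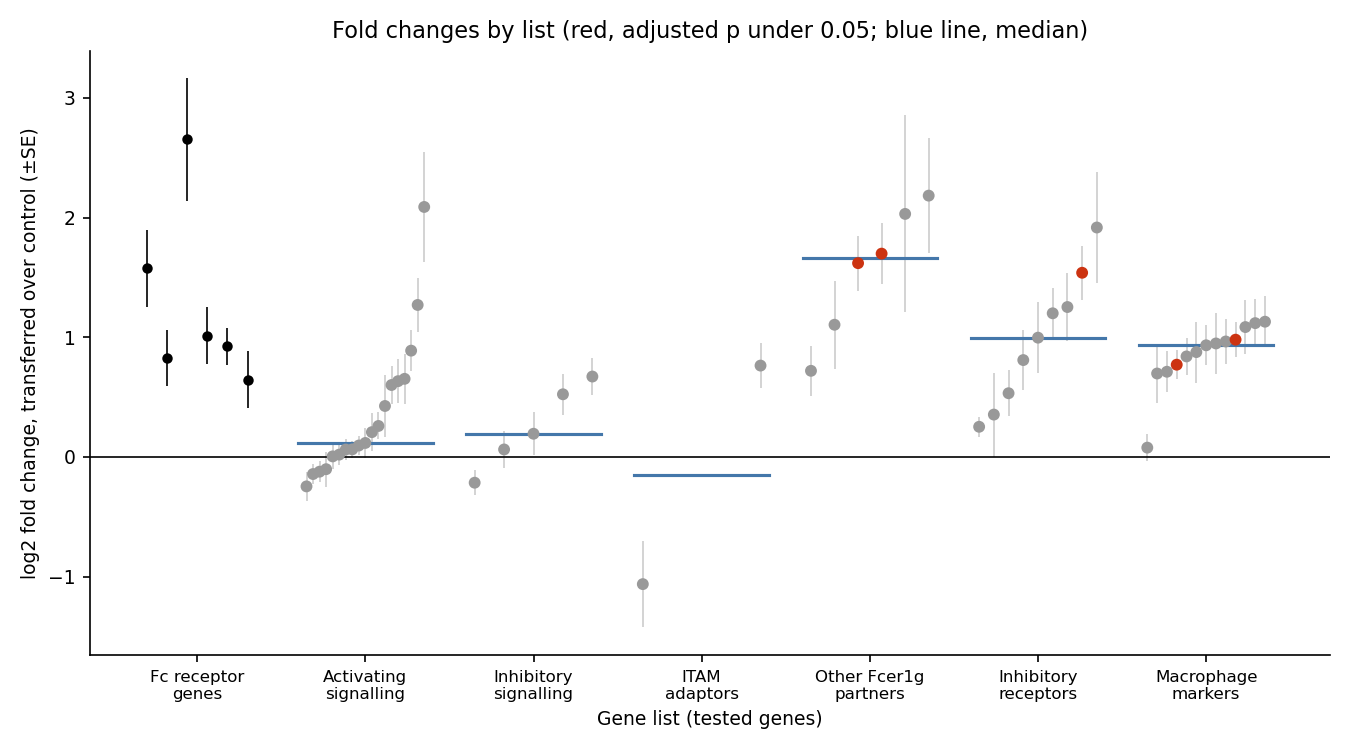
Log2 fold change (y axis, transferred over control, ±SE) of the Fc receptor genes (black, in the order Fcgr1, Fcgr3, Fcgr4, Fcgr2b, Fcer1g, Fcrls) and of the tested genes of 6 lists (x axis), with red for an adjusted p under 0.05 and a blue line for each median, Gp6 included among the other Fcer1g partners. The activating and inhibitory signalling lists centre near 0 (medians 0.12 and 0.19), and the inhibitory receptors and macrophage markers centre near 1 (medians 1.0 and 0.93).

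The tested genes whose log2 CPM (0.5 CPM added) over the 7 hearts was most like that of each receptor gene were Ctss (r = 0.99), Rbpj-ps3 (0.98) and Gm9845 (0.98) for Fcgr1. They were C1s1 (0.99), Tnfaip8l2 (0.98) and Tyrobp (0.97) for Fcgr3, and Hpse (0.99), Pf4 (0.99) and Cd52 (0.99) for Fcgr4. For Fcgr2b they were Vwf (0.99), Vcam1 (0.99) and Tyrobp (0.99), so that endothelial genes stood beside a myeloid one. For Fcer1g they were Shb (0.99), Rbpj (0.98) and Ptpn18 (0.98), and for Fcrls Ifi205 (0.999), Olfr1033 (0.96) and A630001G21Rik (0.96). With 7 hearts and 7667 genes, high coefficients arise for many genes.

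Fcgr2b and Fcgr3 have similar extracellular parts, and reads could in principle be placed on either. Of the distinct 75-base stretches of Fcgr3 transcripts in GENCODE M21, 94 of 1733 (5.42%) also occurred in Fcgr2b and in no other gene. Of those of Fcgr2b, 313 of 5768 (5.43%) occurred in Fcgr3 or in further genes, and none of those of Fcgr1, Fcgr4, Fcer1g or Fcrls occurred in another gene. Deposited values ended in a fraction in 2 of 7 hearts for Fcgr2b and for Fcgr3 and in none for the other 4 genes. On the opposite strand no annotated gene overlapped any of the 6. On the same strand n-TEctc5, Mir6546, n-TGtcc1 and n-TDgtc3 overlapped Fcgr3, and Gm26110 overlapped Fcgr4. Summed over the 7 hearts, n-TEctc5 had 2 counts and the others had 0. The genes lie on chromosome 1 (Fcgr2b at 170960558 to 170976071, Fcgr4 at 171018926 to 171029761, Fcgr3 at 171051169 to 171065915 and Fcer1g at 171229572 to 171234349) and on chromosome 3 (Fcrls at 87250736 to 87263765 and Fcgr1 at 96282909 to 96293969), in build GRCm38. Counts are over the combined exons of each gene.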

How the data were processed

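The authors deposited a table of estimated counts per gene, not normalized, with a combined exon length in bases. Per the submitters' processing notes, bcl2fastq 2.20.0.422, cutadapt 2.5, STAR 2.7.2b, featureCounts 1.6.4, DESeq2 1.22.2 and build GRCm38.p6 were used; settings are not given in the sources used here. Counts were rounded, since 4.63% of them carried a fraction. The table analysed held 20343 complete rows, on chromosomes 1 to 7 and the start of 8, and 1 unfinished row was left out. Other genes are not analysed here. Column totals, 16402194 to 25190580 counts, cover this part only, and 3 counts are 0.119 to 0.183 CPM (counting error only). All 20343 identifiers and start positions matched RefSeq.

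Genes were filtered with filterByExpr, scaled with TMM and tested with the edgeR 4.0.16 quasi-likelihood test (robust, Benjamini-Hochberg, threshold 0.05) in R 4.3.3, after checking on simulated counts. Alternatives used DESeq2 1.42.0 and limma-voom (limma 3.58.1), other scalings, filters and hearts left out. Standard errors came from the F statistic. Ratios used scipy 1.17.1; its two-sided p doubles the smaller tail and cannot go below 0.0571, and a p on the absolute difference, added after seeing the data, cannot go below 0.0286. Groups came from the treatment label, and replicate numbers only name hearts. P-values measure the spread between these hearts. The genes and lists were chosen with earlier results of these data known. Named were the 6 genes, listed genes past the threshold, the 3 smallest p in each list, and the 3 genes most correlated with each gene. Some results that this rule names are not reported here.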

Additional observations from a re-analysis of the deposited data

How the results depend on the processing

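The number of genes past the adjusted threshold was 18 by edgeR and moved with the setting. It was 35 with total count scaling, 252 with DESeq2, 81 when every gene with a count was kept, and 0 with limma-voom, with the identifier form as a covariate and within the hearts with numbers alone (907, 973 and 1054 genes at an unadjusted p under 0.05). Leaving out 1 heart gave 0 to 140 genes: 0 without control heart 1, 2 or 4 or transferred heart 2 (658 to 831 at an unadjusted p under 0.05), 1 without control heart 3, 27 without transferred heart 1 and 140 without transferred heart 3. Fcer1g passed with RLE scaling (log2 fold change 0.93), total count scaling (0.93), every gene kept (0.92) and DESeq2 (0.93). Fcgr4 passed with every gene kept (2.65) and DESeq2 (2.67), and Fcgr1 (1.58), Fcgr2b (1.01) and Fcgr3 (0.82) with DESeq2. Over the fits without 1 heart the log2 fold change ranged from 1.28 to 1.92 for Fcgr1, 0.52 to 0.97 for Fcgr3, 2.04 to 3.08 for Fcgr4, 0.60 to 1.19 for Fcgr2b, 0.82 to 1.11 for Fcer1g and 0.46 to 0.79 for Fcrls. All 6 genes stayed above 0 in all 17 alternatives. The ratio of Fcer1g to Fcgr2b ranged from -0.29 to 0.19 without 1 heart, and changed sign without control heart 3 (0.05) and without transferred heart 2 (0.19). The other ratios kept their sign, at 0.03 to 0.75 for Fcgr1, -0.20 to -0.05 for Fcgr3 and 0.54 to 1.15 for Fcgr4. Without a pseudocount, an alternative chosen after seeing the data, the Fcgr4 ratio was 1.45 and its groups no longer overlapped. With 0.5 CPM added, likewise chosen later, Fcgr4 relative to the macrophage markers was 0.84 and its groups overlapped. For these differences the cause was not tested, except that 0.5 CPM is about the control level of Fcgr4. No paired analysis was possible because the replicate numbers were given in accession order and pair no hearts. The depth limits Fcgr4, which had 8 to 15 counts in control hearts.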
